A study of Homo sapiens with 12 samples.

Results

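The step at which hemogenic endothelium gives way to blood progenitors was examined in 6 of the 12 RNA-seq samples of a human hematopoietic differentiation series. Hemogenic endothelial cells carrying CD31 and CD34 (CD31+CD34+, collected at day 5) were compared with hematopoietic progenitor cells carrying CD43 (CD43+, collected at day 8), with 3 libraries for each population. Both populations came from H1, a widely used human embryonic stem cell line, and the labels name no genetic modification. The cells had been cultured for 2 days with activin A and BMP4, which induce mesoderm, and afterwards with VEGF and bFGF, which favor endothelium and blood. The other 6 samples, undifferentiated H1 and APLNR+ mesoderm cells, entered a single alternative fit and nothing else. The comparison rests on 1 cell line, and although the study's methods speak in general of independent experiments for each analysis, no source used here ties the libraries of a population to separate cultures, so every p value measures the spread between these samples, which may be technical. Day of culture and surface phenotype changed together and cannot be told apart.

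In the embryo, blood progenitors arise from endothelial cells that acquire a hemogenic program, loosen their junctions to neighboring cells and round up, a process called the endothelial to hematopoietic transition. RUNX1 and its target GFI1 are known to drive this change, whereas SOX17, Notch and TGF-beta signaling are known for their roles in the endothelium it leaves behind. Blood made from pluripotent stem cells by such protocols is known to resemble the first wave of the yolk sac, with embryonic globins and many red cell and megakaryocyte precursors.

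Expression was given as FPKM, a count of fragments divided by transcript length and by library size, so levels can be set beside each other between genes. Differences were fitted with limma on log2(FPKM + 1) over the 12954 genes that reached 1 FPKM in at least 3 of the 6 libraries. On this scale the change of a weakly expressed gene is understated. Genes were called raised or lowered in CD43+ cells if they differed 2-fold or more with a Benjamini-Hochberg adjusted p below 0.05. All changes below are differences CD43+ minus CD31+CD34+ on that log2 scale with their standard error (SE), and adjusted p values are from limma over all genes tested. With 3 libraries on each side the smallest p of an exact two-sided permutation test is 0.1, so that test was not used for single genes. In bulk RNA, fewer cells of a type and less RNA per cell cannot be told apart.

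The genes behind the surface phenotypes were examined first as a check of the labels. SPN, which encodes CD43, stood at 2.84, 4.198 and 4.06 FPKM in CD31+CD34+ and 60.3, 90.6 and 75.7 FPKM in CD43+ libraries, a change of 4.02 ± 0.18 (adjusted p 4.97e-07). The populations did not overlap for SPN, and its lowest CD43+ library was far above every CD31+CD34+ library. CD34 went the other way, with 39.8, 53.4 and 49.99 FPKM in CD31+CD34+ and 17.4, 24.1 and 25.1 FPKM in CD43+ libraries, a change of -1.08 ± 0.17 (adjusted p 6.30e-04). Its 2-fold minimum was met narrowly: the change was -0.99 without CD31+CD34+ replicate 2 and -0.92 without CD43+ replicate 1. PECAM1, which encodes CD31, was not lost from CD43+ cells, with 50.9, 59.03 and 55.6 FPKM in CD31+CD34+ and 82.6, 101 and 104 FPKM in CD43+ libraries (0.78 ± 0.12, adjusted p 7.04e-04). The difference for PECAM1 was toward higher values in all 3 CD43+ libraries but stayed under 2-fold. GATA1, the master factor of red cells and megakaryocytes, rose from 1.34, 2.298 and 1.84 FPKM to 48.8, 65.2 and 54.2 FPKM (4.34 ± 0.16, adjusted p 2.30e-07). The endothelial markers CDH5, KDR and TEK averaged 96.8, 277 and 53.5 FPKM in CD31+CD34+ cells and were still present at 33.9, 110.5 and 22.6 FPKM in CD43+ cells. Apart from PECAM1, which was higher in CD43+ cells, these markers went with the labels of the populations. CD43+ libraries also held transcripts typical of endothelium.

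Absolute depth is unknown because FPKM carries no read totals. Relative depth, read from the spacing of the lowest values, ranged from 0.555 times that of CD43+ replicate 3 in CD31+CD34+ replicate 1 to 1.27 times in CD31+CD34+ replicate 2, and between 12297 and 12657 genes reached 1 FPKM. Genes of small RNAs held 10.4% to 68.1% of the summed FPKM, most in CD31+CD34+ replicate 1 (68.1%) and CD43+ replicate 1 (42.2%). Here and below, this class also took in ribosomal RNA genes and the rRNA and tRNA genes of mitochondria. On the genes tested, component 1 of a principal component analysis held 76.7% of the variance and parted the populations, with scores from -50.57 to -45.79 for CD31+CD34+ and from 45.94 to 52.35 for CD43+. Component 2 held 9.91% and parted replicate 1 of both populations (scores -26.78 and -22.09) from replicates 2 and 3 (9.38 to 15.01). Libraries of the same population were at most 50.5 units apart, and libraries of different populations at least 98.8. Without replicate 1 of both populations, 831 genes were raised and 1306 lowered, against 825 and 1291 with all 6 libraries.

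Of the 12954 genes, 825 (6.37%) were raised and 1291 (9.97%) lowered in CD43+ cells, and the libraries did not overlap for 7765 genes (59.9%). These shares are the background against which the gene groups below are read. A gene expressed in 1 population alone passes the filter only through that population and then has to differ, so counts over tested members describe those members and not the whole list. A change of at least 4-fold was reached by 185 raised and 268 lowered genes, whereas the order turned among the largest changes, with 63 raised and 38 lowered genes at 8-fold or more and 19 and 14 at 16-fold or more. The median change of all genes was 0.01, so the 2 populations were centered alike. Raised genes were 39.0% of the genes called. Without any minimum change, 3301 genes were higher and 3441 lower at the same adjusted p. Scaling to an equal sum without small RNA genes gave 698 raised and 1444 lowered genes.

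**Figure D1:**
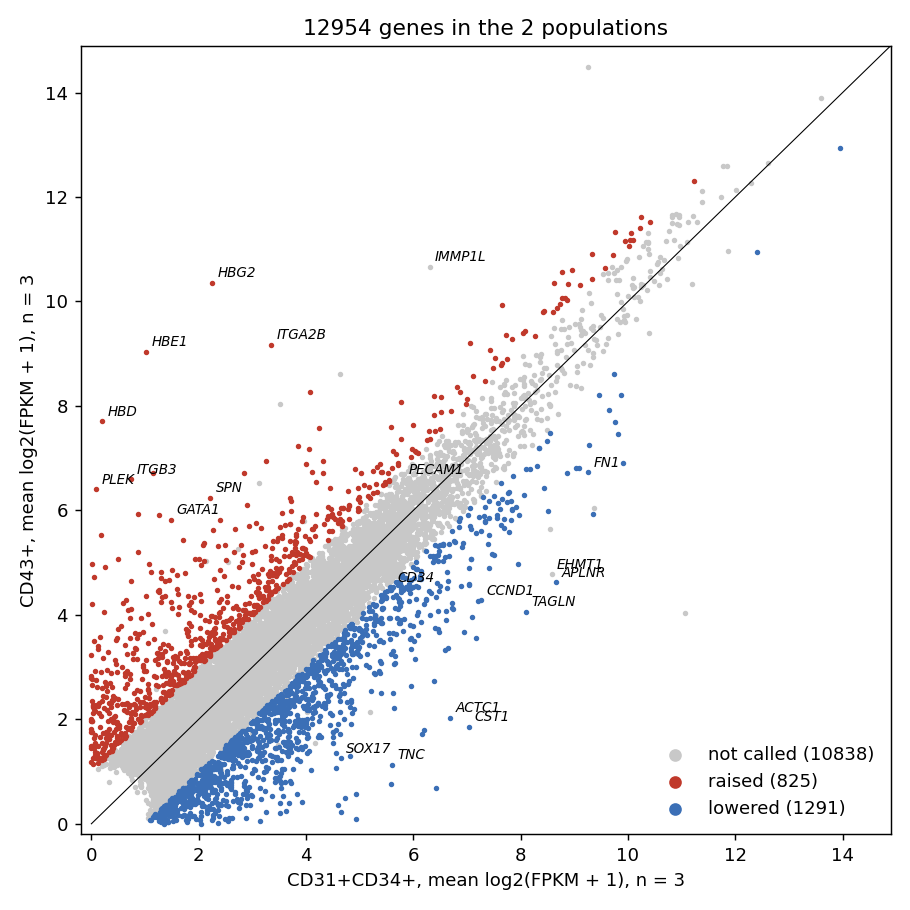
Mean log2(FPKM + 1) of 12954 genes in CD31+CD34+ cells (x axis) and CD43+ cells (y axis), 3 libraries each, colored by the limma call, with the line of equality. Globin and megakaryocyte genes lie farthest above the line. EHMT1, high in CD31+CD34+ replicate 1 alone, and IMMP1L, uneven within both populations, lie far from it without being called.

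The largest rises belonged to the globins. Hemoglobin pairs alpha-like with beta-like chains, and the beta-like genes are used in the order HBE1 (embryonic), HBG2 and HBG1 (fetal), HBD and HBB (adult). HBG2 rose from 3.73, 3.78 and 3.76 FPKM to 1136, 1509.9 and 1326 FPKM, a change of 8.11 ± 0.12 (adjusted p 2.20e-09). HBE1 rose from 0.815, 0.867 and 1.43 FPKM to 482, 564 and 530.2 FPKM (8.02 ± 0.14, adjusted p 3.38e-09). Both genes were detected at a few FPKM or less in the day 5 endothelium, and no library of the 2 populations overlapped. HBD followed with 0.109, 0.181 and 0.144 FPKM in CD31+CD34+ and 200.2, 233 and 191 FPKM in CD43+ libraries (7.51 ± 0.12, adjusted p 2.20e-09), and HBG1 reached 72.3, 30.03 and 42.7 FPKM in CD43+ libraries (5.36 ± 0.27, adjusted p 9.28e-07). The main adult gene HBB remained low, at 10.2, 13.8 and 9.24 FPKM. HBG2 supplied 59.8% to 64.2% and HBE1 24.0% to 25.4% of the summed beta-like FPKM of the CD43+ libraries. HBG1 and HBG2 are near-identical in sequence, so the split of reads between them is uncertain.

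The alpha-like genes were raised to far lower levels. HBA2 reached 28.2, 35.9 and 28.3 FPKM in CD43+ libraries after 0, 0 and 0.0373 FPKM in CD31+CD34+ libraries (4.96 ± 0.13, adjusted p 5.06e-08). The embryonic alpha-like gene HBZ was listed at 0 in all 3 CD31+CD34+ libraries and at 7.03, 10.9 and 7.78 FPKM in CD43+ libraries, HBA1 at 0 and 8.35, 4.32 and 5.77 FPKM, and HBM at 0 and 3.05, 3.39 and 2.72 FPKM. No fold is given for these 3 genes. HBQ1 rose from 1.63, 1.45 and 1.34 FPKM to 24.3, 27.1 and 23.7 FPKM (3.39 ± 0.12, adjusted p 1.75e-07). The summed FPKM of the 5 alpha-like genes was 71.0, 81.6 and 68.2 in CD43+ libraries, and that of the 5 beta-like genes 1902, 2351 and 2099. Beta-like transcripts therefore exceeded alpha-like ones by 26.8 to 30.8 times per library on the FPKM scale, a per-length comparison. HBA1 and HBA2 share nearly all of their coding sequence, and how reads that match both were assigned is not stated in the sources used here. All 10 globin genes passed the expression filter and were called raised, beside 6.37% of all genes tested. All but HBG2 and HBQ1 would not have passed without the CD43+ libraries, where they were high. For those genes the count gives no independent support.

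**Figure D2:**
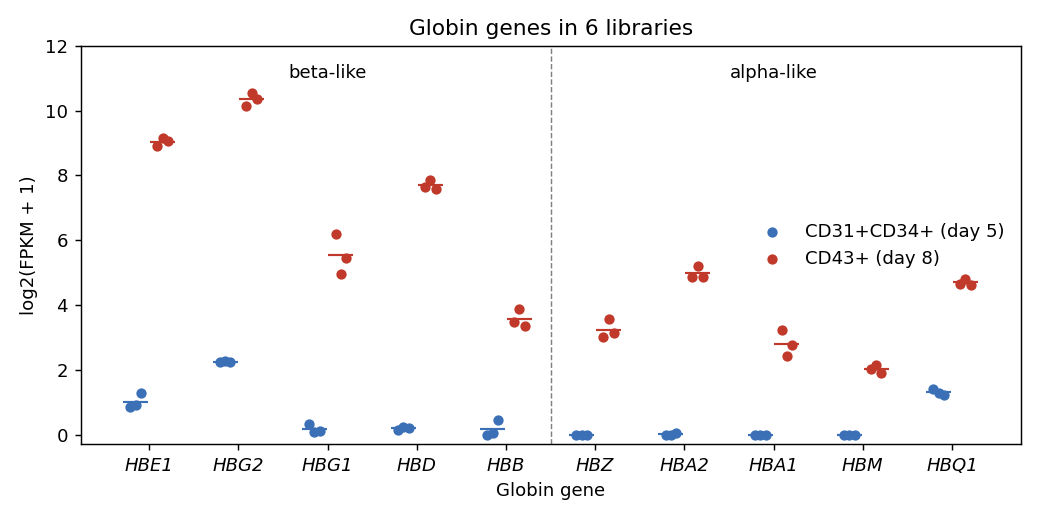
Levels of 10 globin genes as log2(FPKM + 1) in 3 CD31+CD34+ (blue) and 3 CD43+ (red) libraries, with a line at each mean and beta-like genes left of the dashed line. The 3 CD43+ libraries of every globin gene lie above its 3 CD31+CD34+ libraries, and HBG2 and HBE1 lie above all alpha-like genes.

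Among 32 genes of red cell factors, receptor and membrane, 26 passed the filter, 14 were raised and 1 was lowered (median change 1.29). NFE2, a factor of red cells and platelets, rose from 5.61, 6.42 and 6.47 FPKM to 89.2, 119 and 107 FPKM (3.88 ± 0.13, adjusted p 1.55e-07). The erythroid factor KLF1 was already well expressed in CD31+CD34+ cells and rose from 19.3 to 52.96 FPKM (1.41 ± 0.12), and GFI1B from 23.7 to 62.1 FPKM (1.34 ± 0.18). The membrane glycophorins GYPB and GYPE rose by 3.73 ± 0.38 and 2.89 ± 0.15, although GYPB spread from 0.822, 2.03 and 5.33 FPKM over the CD31+CD34+ libraries, and its family shares long stretches of sequence. The adhesion molecule ICAM4 rose by 3.35 ± 0.17 and the heme breakdown enzyme BLVRB by 2.90 ± 0.12. EPOR, the erythropoietin receptor, was not called, with 7.28, 8.04 and 7.27 FPKM in CD31+CD34+ and 4.38, 5.404 and 4.39 FPKM in CD43+ libraries (-0.58 ± 0.13, adjusted p 0.00434). Genes of mature red cells were at or near the floor: SLC4A1 (band 3) averaged 0.0295 FPKM in CD43+ cells, EPB42 0.868 FPKM and AHSP, the alpha globin chaperone, 1.796 FPKM. ADD2, a cytoskeletal adducin, was the member lowered, from 10.3 to 1.75 FPKM (-1.98 ± 0.23).

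All 21 genes of heme synthesis and iron handling passed the filter, and 4 were raised. ALAS2, the erythroid enzyme of the first step of heme synthesis, rose from 1.07, 0.598 and 0.829 FPKM to 48.9, 65.2 and 69.03 FPKM (5.07 ± 0.16, adjusted p 1.09e-07). Its ubiquitous counterpart ALAS1 was not called, with means of 29.5 and 24.2 FPKM (-0.28 ± 0.16). TFRC, the transferrin receptor through which cells take up iron, rose from 7.08 to 25.7 FPKM (1.72 ± 0.13), and UROS and FECH, further steps of the pathway, by 1.36 ± 0.11 and 1.06 ± 0.14. FECH fell under the 2-fold minimum with an equal sum without small RNA genes (0.98) and without CD31+CD34+ replicate 3 (0.93). The median change of the 21 genes was 0.51, and the ferritin genes FTL and FTH1, with the highest levels of the list, were not called at 0.92 ± 0.19 and 0.53 ± 0.13.

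Stretches upstream of the transcription start are shown for 6 genes of this comparison, since KLF1, HBD, ALAS2 and GATA1 rose and TEK and HAND1 fell. They are RefSeq promoters of build GRCh38.p14, not the build of the FPKM table, written 5′ to 3′ on the gene's strand up to the base before the start. Capitals mark the letters of 1 searched motif per sequence: the GATA letters AGATAA or TGATAA in KLF1, HBD and ALAS2, the ETS letters CCGGAA or AGGAAG in GATA1, the SOX letters ACAAT in TEK and the KLF letters CACCC in HAND1, each on either strand. HBD and ALAS2 were chosen for display after their values were seen. The windows are chr19:12887202-12887351 (minus strand) for KLF1, chr11:5234484-5234633 (minus) for HBD, chrX:55030978-55031127 (minus) for ALAS2, chrX:48786440-48786589 (plus) for GATA1, chr9:27109075-27109224 (plus) for TEK and chr5:154478228-154478477 (minus) for HAND1.
KLF1: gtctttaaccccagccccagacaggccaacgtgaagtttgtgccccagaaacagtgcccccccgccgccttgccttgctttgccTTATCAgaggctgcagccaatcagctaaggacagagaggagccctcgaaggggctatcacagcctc
HBD: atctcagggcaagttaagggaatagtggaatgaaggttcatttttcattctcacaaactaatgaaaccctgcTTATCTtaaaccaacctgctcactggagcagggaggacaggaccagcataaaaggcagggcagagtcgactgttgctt
ALAS2: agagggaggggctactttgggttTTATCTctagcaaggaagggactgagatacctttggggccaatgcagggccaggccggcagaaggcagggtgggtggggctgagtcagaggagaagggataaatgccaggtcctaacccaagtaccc
GATA1: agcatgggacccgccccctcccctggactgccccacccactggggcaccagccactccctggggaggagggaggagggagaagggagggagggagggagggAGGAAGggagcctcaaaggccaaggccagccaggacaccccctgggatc
TEK: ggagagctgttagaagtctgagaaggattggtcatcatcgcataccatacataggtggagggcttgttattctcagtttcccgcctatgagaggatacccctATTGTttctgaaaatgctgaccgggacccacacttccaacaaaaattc
HAND1: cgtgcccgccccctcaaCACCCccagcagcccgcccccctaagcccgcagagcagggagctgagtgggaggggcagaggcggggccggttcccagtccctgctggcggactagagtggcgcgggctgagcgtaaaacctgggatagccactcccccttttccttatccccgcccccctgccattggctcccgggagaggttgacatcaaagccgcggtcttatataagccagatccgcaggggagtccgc
The marked letters begin 66 bases before the start in KLF1, 78 in HBD, 127 in ALAS2, 49 in GATA1, 48 in TEK and 233 in HAND1. Within the 250 bases before the start, the GATA letters stood in 14.6% of all 35116 promoters in the RefSeq table, in 8.36% of the promoters of tested protein-coding genes, in 12.4% of those of raised genes and in 10.3% of those of lowered genes. The RUNX letters TGTGGT or TGCGGT stood in 16.3%, 15.2%, 16.9% and 13.4% of the same 4 sets and the ETS letters in 39.3%, 45.1%, 47.2% and 38.1%. For the SOX letters the shares were 24.6%, 15.8%, 19.6% and 16.2%, for the TEAD letters CATTCC 11.9%, 10.03%, 12.8% and 11.2%, for the KLF letters 54.7%, 58.9%, 63.1% and 66.8%, and for the E-box letters CATCTG or CAGATG 12.2%, 8.41%, 11.5% and 9.15%. These are descriptions without a test, over 13699 promoters of 9241 tested genes, 812 promoters of 548 raised and 1498 promoters of 900 lowered genes, and alternative starts of a gene can share bases. The most frequent letters, those of KLF, were about as common upstream of lowered as of raised genes, and a match of a few letters is neither a binding site nor a cause.

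Megakaryocyte and platelet genes rose as a group, with 20 of the 24 members tested raised and none lowered (29 listed, median change 2.42). ITGA2B and ITGB3 encode the 2 chains of the platelet fibrinogen receptor. ITGA2B rose from 7.19, 12.1 and 8.84 FPKM to 567, 574 and 585 FPKM (5.82 ± 0.16, adjusted p 5.06e-08), the highest level of any member. ITGB3 rose from 0.638, 0.78 and 0.602 FPKM to 84.6, 106 and 97.3 FPKM (5.85 ± 0.12, adjusted p 1.42e-08). Neither chain overlapped between the populations. PLEK (pleckstrin), a substrate of protein kinase C in platelets, was close to the floor in CD31+CD34+ libraries, at 0.0544, 0.0503 and 0.0804 FPKM, and reached 72.9, 85.2 and 93.9 FPKM (6.32 ± 0.13, adjusted p 1.09e-08). PF4, the chemokine of platelet granules, rose from 1.61, 1.71 and 0.948 FPKM to 52.2, 73.5 and 53.4 FPKM (4.64 ± 0.18), the adaptor LAT by 3.62 ± 0.17 and CAVIN2 by 3.34 ± 0.12. GP1BA, GP1BB and GP9, parts of the von Willebrand factor receptor, rose by 2.497 ± 0.13, 1.71 ± 0.27 and 3.09 ± 0.16. Its ligand VWF (10.4 to 9.298 FPKM, -0.15 ± 0.12) and the factor FLI1 (103 to 83.998 FPKM, -0.30 ± 0.14) were not called. Late platelet genes were low, with PPBP at 1.28, 1.89 and 2.096 FPKM, TUBB1 at 1.57, 2.07 and 1.76 FPKM and GP6 at 0.092 FPKM on average, and P2RY12 was listed at 0 in all 6 libraries.

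Genes of leukocytes in general followed the same direction, with 23 of 29 tested members of the leukocyte surface and signaling list raised and none lowered (36 listed, median change 1.94). ARHGDIB, an inhibitor of small GTPases in blood cells, rose from 14.1, 21.3 and 18.8 FPKM to 139.8, 215 and 225 FPKM (3.34 ± 0.21). The phosphatases PTPN7 and PTPN6 rose by 3.06 ± 0.15 and 2.52 ± 0.12, WAS, whose loss causes an immune deficiency with few platelets, by 2.59 ± 0.14 and CD84 by 2.67 ± 0.19. The kinase LYN (0.28 ± 0.11), WIPF1 (-0.04 ± 0.16) and the integrin chain ITGB2 (0.87 ± 0.20) were not called. PTPRC, which encodes the pan-leukocyte antigen CD45, was listed at 0, 0 and 0 FPKM in CD31+CD34+ and 0.0695, 0.521 and 0 FPKM in CD43+ libraries and did not pass the filter.

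Of 33 genes of granulocytes, monocytes and mast cells, 15 passed the filter and 14 of them were raised (median change 2.47), whereas several defining granule genes were listed at or near 0, which in this table may be a failed estimate. TYROBP, a signaling adaptor, rose from 0.356, 0.756 and 0.192 FPKM to 23.4, 41.2 and 35.6 FPKM (4.57 ± 0.22, adjusted p 8.17e-07), and its relative FCER1G by 3.27 ± 0.20. SPI1, the myeloid factor PU.1, rose from 0.23, 0.682 and 0.512 FPKM to 11.99, 14.8 and 11.6 FPKM (3.23 ± 0.16), and PRG2, the eosinophil major basic protein, from 0.0815, 0.279 and 0.188 FPKM to 14.6, 17.6 and 14.9 FPKM (3.82 ± 0.13). HDC, which makes histamine, rose by 2.79 ± 0.20, LYZ by 2.70 ± 0.14 and the growth factor receptors CSF3R and CSF1R by 2.37 ± 0.16 and 2.26 ± 0.14. ELANE, S100A8, EPX, TPSAB1, C1QA and C1QB were listed at 0 in all CD43+ libraries, MPO averaged 0.0515 FPKM and the monocyte receptor CD14 0.0465 FPKM. The summed level of the 33 genes ranged from 31.05 to 39.8 FPKM in CD31+CD34+ libraries and from 202 to 268 FPKM in CD43+ libraries. Lymphocyte genes were scarce: 5 of 17 passed the filter, and CD7 and NKG7 were raised, from 0.173 to 3.62 FPKM and 0.115 to 1.38 FPKM, although the change of NKG7 was 0.95 without CD43+ replicate 2. CD79B was highest in the list but not called (32.4 ± 2.53 to 16.8 ± 1.32 FPKM, means with SD, and a change of -0.91 ± 0.11 with SE), and RAG2, DNTT and MS4A1 were listed at 0 in all 6 libraries.

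Blood transcription factors split into those that rose and those that were already present. Of 35 listed, 29 passed the filter, 11 were raised and 1 was lowered. Besides GATA1, NFE2 and SPI1, MYCN rose from 5.403, 8.05 and 6.21 FPKM to 54.7, 73.3 and 76.5 FPKM (3.20 ± 0.17), MYB from 4.62, 7.04 and 6.39 FPKM to 29.97, 44.3 and 45.7 FPKM (2.54 ± 0.19) and IKZF1 from 0.863, 1.42 and 1.01 FPKM to 8.48, 11.3 and 10.2 FPKM (2.39 ± 0.15). RUNX1, the factor of the endothelial to hematopoietic transition, rose from 8.88, 8.72 and 10.3 FPKM to 35.5, 38.1 and 40.02 FPKM (1.92 ± 0.11, adjusted p 2.04e-06), and MEIS1 from 17.1 to 51.5 FPKM (1.53 ± 0.16). GFI1, a target of RUNX1 in this transition, was not called, with means of 22.9 and 11.8 FPKM (-0.90 ± 0.11), while its relative GFI1B was among the raised genes. The core factors TAL1 (87.1, 82.7 and 78.8 FPKM, then 60.8, 68.4 and 65.8 FPKM), LMO2 (68.7, 87.9 and 81.04 FPKM, then 112, 133 and 139 FPKM), LYL1 (56.5 to 83.4 FPKM) and GATA2 (50.3 to 90.6 FPKM) stood high in both populations and were not called. ERG was the factor lowered, from 31.5 to 10.9 FPKM (-1.47 ± 0.18).

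Receptors through which blood cells are instructed changed unevenly. Of 25 listed genes, 12 passed the filter, 4 were raised (CSF3R, CSF1R, CSF2RB and IL6ST) and 2 were lowered (CXCR4 and IL1RL1). CSF2RB, the common beta chain, rose from 0.249, 0.468 and 0.256 FPKM to 4.26, 4.64 and 3.58 FPKM (1.96 ± 0.13). The call for IL6ST, the shared chain gp130, was narrow (6.73, 8.601 and 10.7 FPKM in CD31+CD34+ and 13.3, 16.9 and 26.5 FPKM in CD43+ libraries): the change was 0.92 with an equal sum without small RNA genes, the adjusted p was 0.0514 with no filter, and the change was 0.86 without CD31+CD34+ replicate 1 and 0.75 without CD43+ replicate 3. CXCR4, the homing receptor, fell from 18.03 to 6.67 FPKM (-1.30 ± 0.16). KIT, the stem cell factor receptor, was low in both populations (4.71 to 4.23 FPKM) and FLT3 averaged 0.003 and 0 FPKM. CSF2RA, IL3RA and CRLF2, which lie in the region shared by both sex chromosomes, were listed at 0 in every library, and a value listed at 0 in this table may be a failed estimate.

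Of 21 genes of a stem cell program, 15 passed the filter, 3 were raised and 5 lowered. ANGPT1, the ligand of TEK, rose from 0.12, 0.138 and 0.22 FPKM to 6.28, 8.26 and 9.75 FPKM (2.95 ± 0.16), MECOM by 1.54 ± 0.16 and SPINK2 by 1.10 ± 0.16, the last falling to 0.96 without CD43+ replicate 3. PROCR, the endothelial protein C receptor, fell from 71.6, 80.2 and 72.3 FPKM to 18.1, 20.7 and 17.8 FPKM (-1.93 ± 0.11), CRHBP by 1.58 and HMGA2 by 1.52 on the log2 scale. HLF averaged 0.0633 FPKM in CD43+ cells and HOXA9 0.167 FPKM. Of 32 HOX genes, 8 passed the filter, all from the HOXB cluster, and none was called. HOXB9 stood at 5.11, 9.68 and 9.33 FPKM in CD31+CD34+ and 6.86, 9.92 and 10.003 FPKM in CD43+ libraries (0.16 ± 0.23), HOXB6 at 8.47 ± 0.613 to 4.16 ± 0.9 FPKM and HOXB2 at 7.28 ± 1.07 to 3.64 ± 0.27 FPKM, means with SD over 3 libraries.

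**Figure D3:**
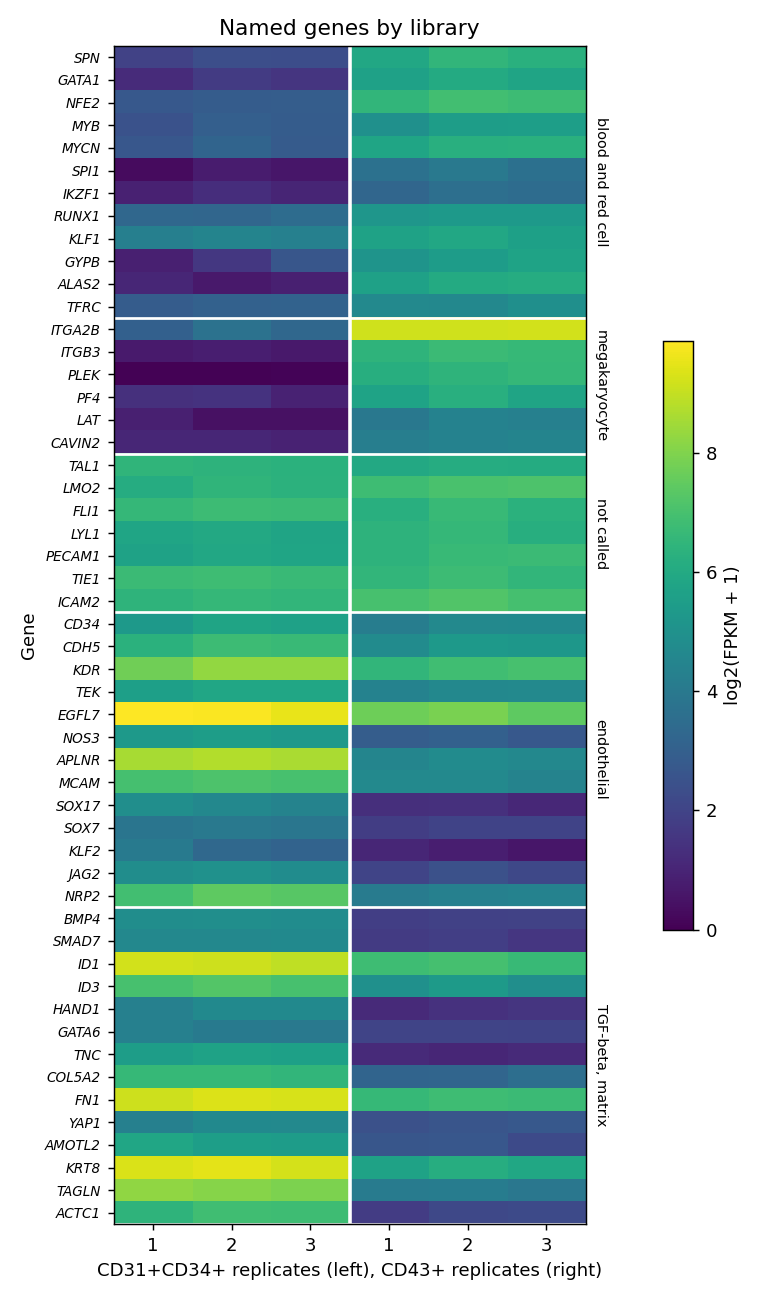
Levels of 52 named genes as log2(FPKM + 1) in the 3 CD31+CD34+ libraries (left) and 3 CD43+ libraries (right), grouped by role. Blood and megakaryocyte genes are brighter on the right than on the left, and endothelial, TGF-beta and matrix genes brighter on the left than on the right. TAL1, LMO2, FLI1, LYL1, PECAM1, TIE1 and ICAM2 are bright on both sides, as are some of the lowered genes, such as EGFL7, ID1 and FN1.

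The endothelial surface and junction list held 47 genes, of which 42 passed the filter, 23 were lowered and 2 raised (median change -1.19). APLNR, the apelin receptor, fell from 381, 429 and 398 FPKM to 21.7, 26.2 and 23.2 FPKM (-4.03 ± 0.11, adjusted p 5.06e-08), and its ligand APLN from 22.4, 26.6 and 23.7 FPKM to 0.204, 0.185 and 0.103 FPKM (-4.44 ± 0.12). Both sides of this signaling pair were therefore far lower in CD43+ cells. EGFL7, an endothelial matrix protein, fell from 942, 898 and 754 FPKM to 209.5, 235 and 173 FPKM (-2.07 ± 0.14), the nitric oxide synthase NOS3 by 2.495, the adhesion molecule MCAM by 2.46 and TM4SF18 by 2.68 on the log2 scale. CDH5, the junction cadherin VE-cadherin, fell from 79.1, 108 and 103 FPKM to 26.5, 38.4 and 36.7 FPKM (-1.49 ± 0.17), the VEGF receptor KDR from 209.9, 310.3 and 309 FPKM to 89.6, 115 and 126 FPKM (-1.31 ± 0.18) and the angiopoietin receptor TEK from 47.04, 56.5 and 56.9 FPKM to 19.8, 23.5 and 24.4 FPKM (-1.21 ± 0.13). Its sister receptor TIE1 was not called, at 106, 110.4 and 104 FPKM and 89.1, 108 and 89.5 FPKM (-0.16 ± 0.11, adjusted p 0.25), nor were ICAM2 (0.56 ± 0.11), VWF (-0.15 ± 0.12), ECSCR (-0.04 ± 0.15) and the gap junction gene GJA4 (0.53 ± 0.13). EMCN and CLDN5 were the raised members, at 0.396 to 3.84 FPKM and 1.64 to 5.53 FPKM.

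Of 27 endothelial transcription factors, 24 passed the filter, 9 were lowered and 1 was raised (median change -0.58). Of the SOXF factors, SOX17 fell from 28.6, 23.4 and 20.6 FPKM to 1.49, 1.58 and 1.13 FPKM (-3.38 ± 0.15, adjusted p 5.43e-07) and SOX7 from 13.2, 15.1 and 13.8 FPKM to 2.51, 2.99 and 2.96 FPKM (-1.98 ± 0.12), whereas SOX18 was low and not called (3.201 to 1.702 FPKM, -0.65 ± 0.15). KLF2, which responds to blood flow, fell from 15.6, 9.14 and 7.92 FPKM to 1.08, 0.764 and 0.513 FPKM (-2.69 ± 0.23). ETV2, which starts the endothelial program, fell to 0.658, 0.419 and 1.16 FPKM (-1.68 ± 0.21), HEY2 by 1.53 and ELK3 by 1.49 on the log2 scale. MEF2C rose from 11.9 to 34.8 FPKM (1.46 ± 0.18). Within the ETS family, FLI1 was not called while ERG and ETV2 fell.

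Notch pathway genes moved in both directions (27 listed, median change -0.15). Of 22 tested members, 3 were raised (13.6%) and 4 lowered (18.2%), beside 6.37% and 9.97% of all genes tested. JAG2, a ligand, fell from 27.9, 31.2 and 27.2 FPKM to 3.13, 4.41 and 3.41 FPKM (-2.69 ± 0.14), and the receptor NOTCH3 from 24.03, 27.4 and 25.8 FPKM to 7.48, 7.15 and 5.89 FPKM (-1.77 ± 0.12). The arterial ligand DLL4 rose from 9.84, 9.68 and 8.55 FPKM to 25.7, 28.4 and 24.8 FPKM (1.40 ± 0.11, adjusted p 1.28e-05), and the target HES4 and the modifier MFNG rose by 1.37 ± 0.21 and 1.26 ± 0.13. The targets HES1 (-0.44 ± 0.16) and HEY1 (0.02 ± 0.12) were not called, and HEY2 fell. Among 14 tested genes of arterial and venous identity (18 listed), 10 were lowered and 2, DLL4 and EFNB2, were raised. Of the lowered members, NRP2, a semaphorin and VEGF receptor, went from 117, 169.9 and 160.0 FPKM to 16.2, 18.9 and 19.8 FPKM (-2.94 ± 0.16), ACVRL1 from 87.9 to 21.01 FPKM (-2.02 ± 0.13), UNC5B from 15.6 to 3.55 FPKM (-1.87 ± 0.12) and NRP1 from 52.8 to 18.1 FPKM (-1.49 ± 0.16). The venous receptor EPHB4 fell from 109 to 41.03 FPKM while its arterial ligand EFNB2 rose from 3.59 to 10.99 FPKM.

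Transcripts of ligands, receptors and targets of TGF-beta and BMP signaling were among the lowered genes. Of 55 listed genes, 44 passed the filter, 22 were lowered and 1, the stress cytokine GDF15, was raised (median change -1.003). Among ligands, BMP4 fell from 27.7, 28.4 and 26.8 FPKM to 2.61, 2.8001 and 2.88 FPKM (-2.93 ± 0.11, adjusted p 2.21e-07) and BMP2 from 3.77, 3.51 and 3.62 FPKM to 0.698, 0.544 and 0.71 FPKM (-1.49 ± 0.11). Among receptors, ACVRL1 and its partner ENG fell (ENG from 11.9 to 2.39 FPKM), TGFBR1 fell from 17.1 to 6.27 FPKM (-1.30 ± 0.17) and TGFBR2 was not called (6.21 to 6.61 FPKM, 0.08 ± 0.12). The signal carriers SMAD2 (-0.28 ± 0.16) and SMAD4 (0.01 ± 0.20) were not called. Of the targets and feedback inhibitors, BAMBI was not called (83.5 to 58.8 FPKM, -0.498 ± 0.14), while SMAD7 fell from 23.5, 23.2 and 24.8 FPKM to 2.31, 2.59 and 1.96 FPKM (-2.92 ± 0.12), ID1 from 589, 552 and 488 FPKM to 111, 123 and 100.1 FPKM (-2.27 ± 0.12) and ID3 from 127, 149 and 127 FPKM to 30.4, 40.2 and 28.5 FPKM (-2.005 ± 0.14). LTBP2, a matrix protein named after the family of latent TGF-beta binding proteins, fell by 2.43 on the log2 scale.

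Of 46 Wnt pathway genes, 34 passed the filter, 9 were lowered and 2 raised (median change -0.59). WLS, needed for Wnt secretion, fell from 49.8, 69.9 and 63.2 FPKM to 8.74, 10.8 and 12.6 FPKM (-2.40 ± 0.16), the antagonist SFRP2 from 10.1, 11.3 and 10.2 FPKM to 0.597, 0.452 and 0.779 FPKM (-2.85 ± 0.13), and the targets NKD1, SP5 and AXIN2 by 2.62, 1.91 and 1.58 on the log2 scale. Another antagonist, SFRP5, rose from 3.11, 3.68 and 2.93 FPKM to 40.7, 42.1 and 35.6 FPKM (3.26 ± 0.12), and the ligand WNT5B from 13.03, 12.02 and 11.2 FPKM to 51.3, 58.3 and 47.5 FPKM (2.02 ± 0.12). LEF1 (0.09 ± 0.22) and GSK3B (-0.19 ± 0.20) were not called.

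The study followed mesenchymal genes over the differentiation and singled out several of the genes below on these samples, so their direction is not independent evidence. Of 37 mesenchymal transcription factors, 21 passed the filter, 12 were lowered and none was raised (median change -1.07). HAND1 fell from 18.6, 24.8 and 24.5 FPKM to 1.24, 1.65 and 1.88 FPKM (-3.19 ± 0.16, adjusted p 8.43e-07), NKX2-5 from 21.8, 22.97 and 20.3 FPKM to 1.68, 2.39 and 1.79 FPKM (-2.95 ± 0.13) and EOMES from 4.06, 4.18 and 4.17 FPKM to 0.0365, 0 and 0 FPKM (-2.34 ± 0.11). MSX2 fell by 2.27, GATA6 by 2.08, GATA4 by 1.79, HMGA2 by 1.52 and SNAI1 by 1.24 on the log2 scale. TBX20 fell by 1.03, but by 0.89 with replicates 2 and 3 alone. The zinc finger factors ZEB2 (47.99, 49.3 and 47.3 FPKM, then 48.8, 55.8 and 55.5 FPKM, 0.14 ± 0.10) and ZEB1 (0.16 ± 0.21) were not called. OVOL2 and FOXD1 did not pass the filter, at 1.02 to 0.186 FPKM and 0.676 to 0.162 FPKM.

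The extracellular matrix list held 63 genes, of which 50 passed the filter, 27 were lowered and 2 raised (median change -1.11). TNC (tenascin C) fell from 44.5, 51.1 and 48.2 FPKM to 1.25, 1.08 and 1.26 FPKM (-4.48 ± 0.11, adjusted p 4.51e-08), COL5A2 from 97.02, 97.8 and 89.8 FPKM to 8.02, 8.405 and 10.8 FPKM (-3.26 ± 0.13) and FN1 (fibronectin) from 555, 661 and 627 FPKM to 97.1, 112 and 106 FPKM (-2.53 ± 0.11). FBN2 and COL5A1 fell by 2.79 and 2.45 on the log2 scale. THBS1 (thrombospondin 1), which is also a platelet granule protein, rose from 4.26, 5.197 and 7.11 FPKM to 44.3, 52.2 and 50.1 FPKM (2.95 ± 0.16), and COL2A1 from 9.97 to 41.8 FPKM. COL18A1 (-0.12 ± 0.16) and LAMB2 (-0.06 ± 0.18) were not called. Of 26 integrins, 17 passed the filter, 9 were lowered and 4 raised. The fibronectin receptor chain ITGA5 fell from 150.2, 183 and 172 FPKM to 38.9, 50.98 and 46.6 FPKM (-1.87 ± 0.13), ITGAV by 1.87, ITGB5 by 2.62 and ITGA3 by 1.74 on the log2 scale, and ITGA2B, ITGB3, ITGA1 and ITGA4 were raised.

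Targets and factors of TEAD and the mechanosensitive coactivator YAP followed, with 16 of 23 tested members lowered and none raised (24 listed, median change -1.31). AMOTL2 fell from 55.9, 46.1 and 43.1 FPKM to 5.17, 5.45 and 3.65 FPKM (-3.11 ± 0.16), ANKRD1 from 9.02, 10.2 and 10.1 FPKM to 0.624, 0.764 and 1.16 FPKM (-2.55 ± 0.14) and YAP1 itself from 18.9, 24.98 and 23.9 FPKM to 4.46, 5.14 and 5.61 FPKM (-1.96 ± 0.14). AXL, AMOT and TEAD3 fell by 2.09, 1.98 and 1.85 on the log2 scale. Of 34 tested genes of stress fibers, caveolae and focal adhesions, 16 were lowered and 1, ACTA2, was raised. TAGLN (transgelin) fell from 305, 272 and 246 FPKM to 16.2, 16.9 and 13.9 FPKM (-4.04 ± 0.12), LGALS1 from 473, 572 and 520.0 FPKM to 107, 126 and 102 FPKM (-2.22 ± 0.12), FLNC by 2.47 and CNN1 by 2.39. S100A11 changed by -3.14 ± 0.39 with an uneven CD31+CD34+ group (65.6, 206 and 184 FPKM). MYL6, among the most abundant transcripts of CD31+CD34+ cells, was not called (3877, 3786 and 3508 FPKM in CD31+CD34+ and 1989, 2104 and 1928 FPKM in CD43+ libraries, -0.89 ± 0.12), but it was under quantile normalization (-1.40). FLNA (-0.77 ± 0.13) and S100A6 (-0.27 ± 0.16) were not called either.

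Of 35 epithelial genes, 29 passed the filter, 17 were lowered and 1, CLDN10, was raised (median change -1.07). The keratin KRT8 fell from 639, 709 and 613 FPKM to 51.4, 71.1 and 58.9 FPKM (-3.42 ± 0.14, adjusted p 2.99e-07), its partner KRT18 by 2.01 and KRT19 by 2.53 on the log2 scale. EPCAM fell from 8.16, 6.85 and 8.55 FPKM to 1.83, 2.18 and 2.61 FPKM (-1.47 ± 0.14) and CLDN6 from 26.7 to 5.44 FPKM (-2.11 ± 0.13). CDH1, the epithelial cadherin, was low and fell from 3.96, 5.21 and 4.71 FPKM to 1.45, 1.68 and 1.92 FPKM (-1.07 ± 0.14), with a change of -0.99 without CD31+CD34+ replicate 2. OCLN did not pass the filter (0.862 to 0.737 FPKM), and F11R (0.22 ± 0.16) was not called.

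**Figure D4:**
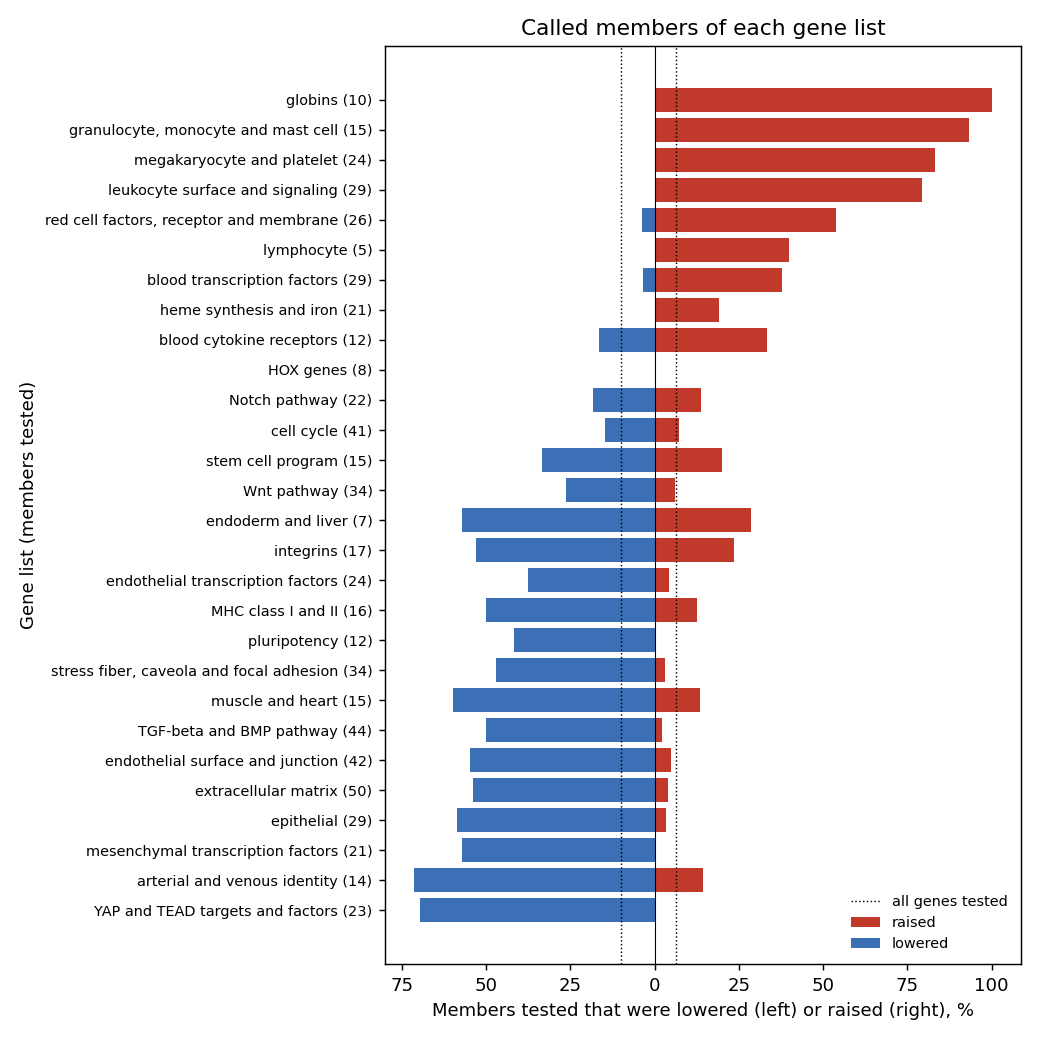
Percent of the tested members of 28 gene lists that were raised (right) or lowered (left) in CD43+ cells, with the number tested in parentheses and dotted lines at the 6.37% and 9.97% of all genes tested. Blood lists extend to the right, and YAP, arterial and venous, mesenchymal, epithelial, matrix and endothelial lists to the left.

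Markers of cell types outside the blood line were present in CD31+CD34+ libraries and moved with the comparison. Of 20 muscle and heart genes, 15 passed the filter, 9 were lowered and 2 raised (median change -2.18). The heart actin ACTC1 fell from 84.3, 114 and 112 FPKM to 2.36, 3.402 and 3.61 FPKM (-4.66 ± 0.17), the atrial light chain MYL7 from 23.4, 23.03 and 22.7 FPKM to 0.514, 0.254 and 0.107 FPKM (-4.23 ± 0.14) and TNNC1 from 27.2, 29.5 and 25.3 FPKM to 1.42, 1.15 and 1.91 FPKM (-3.52 ± 0.14), while MYL4, which is also expressed in early red cells, rose from 53.9 to 268 FPKM. The heart muscle markers TNNT2, MYH6 and MYH7 averaged 0.266, 0.209 and 0.0489 FPKM in CD31+CD34+ cells, and the smooth muscle marker MYH11 0.00453 FPKM. The summed level of the list was 766 to 849 FPKM in CD31+CD34+ and 350.4 to 421 FPKM in CD43+ libraries. Its part in the matrix, stress fiber and mesenchymal results was not tested.

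Pluripotency genes were lower too, with 5 of 12 tested members lowered and none raised (17 listed). POU5F1 fell from 73.9, 92.2 and 86.9 FPKM to 11.4, 13.6 and 12.4 FPKM (-2.66 ± 0.12), TDGF1 by 3.29 and ZFP42 by 1.53 on the log2 scale, whereas LIN28A was high in both populations and not called (217 ± 24.97 to 119 ± 9.61 FPKM, means with SD). SOX2, a defining marker of H1, averaged 0.0327 and 0.0609 FPKM. The summed level of the list was 418 to 515 FPKM and 206 to 242 FPKM. Of 18 endoderm and liver genes, 7 passed the filter, 4 were lowered and 2, TTR and APOA2, were raised. APOA1 fell from 10.97 to 2.02 FPKM, TTR rose from 0.205 to 4.37 FPKM, ALB averaged 0.0436 FPKM in CD31+CD34+ cells and was listed at 0 in every CD43+ library, and the summed level was 38.1 to 46.05 FPKM and 22.6 to 28.9 FPKM. APOA2 lost its call without CD43+ replicate 2 (0.97, adjusted p 0.0684) or CD31+CD34+ replicate 1 (0.82), and AFP, lowered by 1.08, without CD31+CD34+ replicate 2 (-0.99). The part of these cell types in the other results was not tested.

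The cell cycle list was close to the background, with 3 of 41 tested genes raised and 6 lowered (43 listed, median change -0.16). The D cyclins differed in direction. CCND1 fell from 167, 149 and 139.9 FPKM to 18.4, 16.98 and 19.9 FPKM (-2.98 ± 0.11, adjusted p 2.43e-07), CCND3 rose from 38.6, 41.5 and 36.9 FPKM to 107, 122 and 109 FPKM (1.51 ± 0.11, adjusted p 5.16e-06) and CCND2 was not called (28.5 to 45.4 FPKM, 0.65 ± 0.13). The cell cycle inhibitor CDKN1A rose from 31.5, 34.9 and 32.1 FPKM to 82.9, 99.3 and 84.2 FPKM (1.41 ± 0.11) and the replication clamp PCNA by 1.18 ± 0.12, while PLK1 and CDC20, genes of mitosis, fell by 1.31 and 1.25 on the log2 scale. CDK4 (0.22 ± 0.12) and MCM7 (-0.12 ± 0.11) were not called.

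Genes of antigen presentation by MHC class I moved in both directions. Of 16 tested genes of MHC class I and II (22 listed), 8 were lowered and 2 raised. The peptide transporter TAP1 fell from 5.92, 7.12 and 6.399 FPKM to 0.495, 0.543 and 0.36 FPKM (-2.35 ± 0.12) and the immunoproteasome genes PSMB9 and PSMB8 by 1.73 and 1.42 on the log2 scale. HLA-B changed by -1.85 ± 0.40, with a spread in CD43+ libraries (5.57, 23.97 and 7.85 FPKM). B2M, the light chain of class I molecules, rose from 104, 153 and 161 FPKM to 309, 399 and 437 FPKM (1.45 ± 0.19, adjusted p 2.33e-04). The class I genes resemble each other in sequence, so the split of reads between them is uncertain. CIITA, the class II regulator, was listed at 0 in all 6 libraries.

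The 12 largest rises among protein-coding genes were, besides the globins, ALAS2 and the megakaryocyte genes above, DLK1 and LST1. DLK1, an imprinted gene of the Notch ligand family, rose from 1.74, 1.11 and 0.9 FPKM to 105, 111 and 95.1 FPKM (5.55 ± 0.15), and LST1, a leukocyte gene, from 0.0727, 0.317 and 0.193 FPKM to 27.6, 30.4 and 30.2 FPKM (4.67 ± 0.13). The largest falls were those of CST1, PRR9, SOST, ACTC1, TNC, ZAP70, APLN, SP6, SLPI, ADAMTSL2, MYL7 and TAGLN. CST1, a cystatin, fell from 87.96, 165 and 154 FPKM to 2.57, 3.49 and 2.002 FPKM (-5.18 ± 0.24) and PRR9 from 27.8, 31.9 and 28.7 FPKM to 0.091, 0.11 and 0 FPKM (-4.83 ± 0.12). SOST, the secreted inhibitor sclerostin known from bone, fell from 43.3, 50.6 and 46.2 FPKM to 0.535, 0.796 and 0.792 FPKM (-4.81 ± 0.13), and SP6 from 78.04, 71.9 and 66.5 FPKM to 2.88, 2.68 and 1.89 FPKM (-4.40 ± 0.14). ZAP70, the kinase of T cell receptor signaling, was expressed in the endothelial population and fell from 68.5, 76.6 and 66.1 FPKM to 2.26, 2.16 and 2.44 FPKM (-4.44 ± 0.11), the opposite of most leukocyte genes. The protease inhibitor SLPI fell by 4.36 and ADAMTSL2 by 4.23 on the log2 scale.

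Some genes were close to the floor in 1 population. Under 0.5 FPKM in every CD31+CD34+ library and at least 5 FPKM in every CD43+ library were 20 protein-coding genes, among them NCF4, part of the phagocyte oxidase (0, 0 and 0.0152 FPKM in CD31+CD34+ and 16.4, 18.9 and 16.97 FPKM in CD43+ libraries), TREM2 (0, 0 and 0.0879 FPKM in CD31+CD34+ and 10.3, 11.8 and 9.03 FPKM in CD43+ libraries) and CD244 (0.119, 0.0718 and 0.0634 FPKM in CD31+CD34+ and 8.603, 9.52 and 9.295 FPKM in CD43+ libraries), all 3 named after their values were seen. The reverse held for 11 genes, among them SP7, a bone cell factor (7.15, 8.99 and 9.61 FPKM in CD31+CD34+ and 0.16, 0.17 and 0.155 FPKM in CD43+ libraries), CYP26A1, which degrades retinoic acid (9.85, 10.9 and 10.8 FPKM in CD31+CD34+ and 0.148, 0.254 and 0.0463 FPKM in CD43+ libraries), and TNFRSF11A, the receptor RANK (6.24, 6.01 and 6.98 FPKM in CD31+CD34+ and 0.0959, 0.0825 and 0.0513 FPKM in CD43+ libraries), likewise named afterwards. These limits compare libraries of unequal depth, and values under 0.5 FPKM are the least precise.

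The most abundant protein-coding transcripts were largely shared and belonged to ribosomal proteins and the cytoskeleton. RPS27 was listed at 2512, 4638 and 4316 FPKM in CD31+CD34+ and 3766, 8020.1 and 7866 FPKM in CD43+ libraries (0.75 ± 0.33, adjusted p 0.0842) and RPL37A at 3388, 3546 and 3528 FPKM in CD31+CD34+ and 6237, 6326 and 5993 FPKM in CD43+ libraries (0.83 ± 0.12, adjusted p 5.00e-04). Replicate 1 was the lowest library for RPS27 in both populations. TMSB10, which binds actin monomers, fell from 5395, 5622 and 5156 FPKM to 2020.4, 2079.8 and 1819.8 FPKM (-1.45 ± 0.12, adjusted p 1.81e-05). RPS18 was raised by 1.08 ± 0.13, but by 0.63 under quantile normalization. Values that were very uneven between libraries put 2 further genes on this list. EHMT1 was listed at 36018, 40.9 and 35.9 FPKM in CD31+CD34+ and 26.2, 26.7 and 26.7 FPKM in CD43+ libraries. IMMP1L was listed at 10.2, 6.79 and 5624 FPKM in CD31+CD34+ and 20.6, 7814 and 25444 FPKM in CD43+ libraries. Neither was called (adjusted p 0.176 and 0.242), although IMMP1L was called with the replicate number as a block (4.36, adjusted p 0.0493), without CD31+CD34+ replicate 3 (7.44, adjusted p 0.034) and without CD43+ replicate 1 (7.48, adjusted p 0.0265).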

How the data were processed

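Sequencing libraries were made from Trizol-extracted total RNA with a TruSeq kit (Illumina). The authors deposited FPKM values of all samples in 1 table, whose column names are the sample titles. The submitters' processing notes name BWA, Bowtie, RSEM and the build hg19 without saying which made the table. Scaling between libraries, the annotation and the use of strand are not given in the sources used here. The table holds 58365 gene lines and 56593 symbols. Of these, 345 stand on several lines, of which the highest on average was used. Gene types came from GENCODE release 29 by symbol (54879 matched) and promoters from RefSeq (GRCh38.p14).

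Values were transformed as log2(FPKM + 1), genes with at least 1 FPKM in 3 or more of the 6 libraries were kept, and limma 3.58.1 in R 4.3.3 (lmFit, eBayes with trend) was fitted without a covariate. FPKM values are not counts, and a count model was not used. A listed 0 can be a failed estimate: 23 genes had a library at 0 beside libraries of at least 10 FPKM, such as the translation factor EEF1A1 (1839, 2329 and 2301 FPKM in CD31+CD34+, then 4494, 0 and 0 FPKM in CD43+ libraries). The replicate numbers come from the titles. Deviations from the population means correlated between libraries of the same number (0.33, 0.15 and 0.28), which alone does not establish that the numbers pair the samples. The main fit ignored the numbers, and a fit with the number as a block was an alternative. On simulated data for 12954 genes, 199 of 200 changed genes and 0 unchanged genes were called. The changed genes were drawn from the better expressed ones, with changes above the 2-fold minimum and independent noise. Weak genes, changes near 2-fold, effects shared between libraries and failed estimates were not simulated, so the recovery does not measure sensitivity for them.

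The comparison, the gene lists and the alternatives were chosen with earlier results of these data known, and the lists were written from general knowledge. Named genes were the surface and lineage markers, the 12 largest rises and falls among called protein-coding genes without overlap and with a higher mean of at least 10 FPKM, up to 6 called and 3 abundant uncalled members per list (every member of lists of up to 12), the 10 most abundant protein-coding genes of each population, and genes the study singled out. Some genes that this rule names are not reported here. CDH5, KDR and TEK were set as endothelial markers. Other genes named, such as RUNX1, GFI1, MPO or PTPRC, were picked from the lists after their values were seen. Python 3.11.15 with pandas 2.3.3 and matplotlib 3.10.9 summarized the fits and drew the figures.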

Additional observations from a re-analysis of the deposited data

How the results depend on the processing

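The counts of raised and lowered genes (825 and 1291) moved by less than 1.5 times under upper-quartile scaling (874 and 1244), quantile normalization (863 and 1230), an equal sum without small RNA genes (698 and 1444), no filter (816 and 1286), all 12 libraries in a single model (825 and 1293), eBayes without trend (825 and 1291), replicates 2 and 3 alone (831 and 1306), and without suspected failed estimates (826 and 1291), symbols on several lines (821 and 1281) or small RNA genes (825 and 1289, a setting added after seeing the data). A pseudocount of 0.1 raised them to 1287 and 1753, the first by over 1.5 times. A mean of at least 5 FPKM, where 7935 genes were tested, gave 516 and 772, no minimum change 3301 and 3441, and a minimum change of 4-fold 185 and 268. Leaving out 1 library at a time gave 751 to 915 raised and 1220 to 1387 lowered genes.

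With the replicate number as a block, which pairs the libraries, 832 genes were raised and 1293 lowered, 1 call was lost, 10 were gained and 0 changed sign. Among the named genes the block added the call for IMMP1L and changed no other.

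Of 164 called genes among the 247 tested under the naming rule, 153 kept their call in each of 19 settings in which they were tested and 11 lost it in at least 1: FECH, IL6ST, RPS18, APOA2, TBX20, CD34, NANOG, AFP, CDH1, NKG7 and SPINK2, each with the same direction. Some uncalled genes gained a call in at least 1 setting. Among them were MYL6 under quantile normalization (-1.40), and FTL (1.10) and RPS27 (1.11) without CD43+ replicate 1. With a pseudocount of 0.1, ITGB2 (1.11) and HOXB6 (-1.03) were called. Uncalled genes with a sign that differed between settings numbered 9, none with a change over 0.51. The median of the lymphocyte list, 0.45 over 5 genes, turned to -0.91 with a mean of at least 5 FPKM, which leaves CD79B alone. No median of another list changed sign where it exceeded the spread between libraries. Sizes were less stable, with 87 of 532 list medians over all settings classed as moved and 444 as the same. The moved medians included 17 of 28 with a mean of at least 5 FPKM and 17 of 28 with a pseudocount of 0.1. An equal sum without small RNA genes moved 10 of 28. Counts of raised or lowered list members moved in 35 of 1064 cases, and in 17 of 56 with a mean of at least 5 FPKM. With 3 libraries a population and unknown absolute depth, values under 1 FPKM are the least precise.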

Other observations

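Families of housekeeping genes, chosen after their values were seen, did not lie evenly around the median change of all genes (0.01), with 6.37% of all genes raised and 9.97% lowered. Of 81 tested genes of cytosolic ribosomal proteins, 80 were higher on average in CD43+ cells, 32 were raised and 1, the paralog RPL39L, was lowered (median change 0.81). The median was 0.84 with upper-quartile scaling, 0.72 with an equal sum without small RNA genes and 0.42 with quantile normalization, under which 19 were raised. Of 78 mitochondrial ribosomal protein genes, 66 were higher, 6 were raised and 0 lowered (median 0.40, and 0.31 to 0.45 under the 3 scalings). Of 74 genes of respiratory chain and ATP synthase subunits, 67 were higher, 15 were raised and 0 lowered (median 0.53, and 0.45 to 0.57 under the 3 scalings). Genes of such a family are not independent replicates.

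Host genes of small nucleolar RNAs, which carry these RNAs in their introns, were raised in 5 of 25 cases and lowered in 1 (median change 0.46). GAS5 rose from 149.8, 183 and 182 FPKM to 489.8, 554 and 578 FPKM (1.65), ZFAS1 from 50.3, 45.4 and 49.6 FPKM to 139, 134 and 147 FPKM (1.51), and EPB41L4A-AS1, SNHG16 and SNHG15 by 1.45, 1.25 and 1.19. SNHG18 was the host gene lowered (-1.33). The counts were the same under all 3 scalings. SNHG3 stood at 153 FPKM in CD43+ replicate 1 and at 63.5 and 67.9 FPKM in the other CD43+ libraries, and was not called.

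Tubulin genes, the subunits of microtubules, went mostly the other way, with 7 of 15 lowered and 1 raised (median change -0.99, and -1.14 to -0.95 under the 3 scalings, with 7 or 8 lowered). TUBA1A fell from 878, 1042 and 965 FPKM to 106, 131 and 122 FPKM (-2.997), and TUBB2A, TUBB2B and TUBB3 by 3.43, 3.26 and 2.71 on the log2 scale. TUBB1, the tubulin of platelets, was the member raised, from 0, 0.0135 and 0 FPKM to 1.57, 2.07 and 1.76 FPKM. TUBA1B remained the most abundant member in both populations and was not called (-0.99).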
